A study of Mus musculus with 15 samples.

Results

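A set of 10 genes that mark fibroblasts and stellate cells without being collagens was followed in mouse pancreas: Lum, Dcn, Postn, Mgp, Frem1, Pdgfra, Pdgfrb, Acta2, Des and Vim. They were found by matching the RefSeq accession of every array probe to a gene symbol, and each of the 10 had 1 probe, among 20660 genes with a probe and 17338 genes that could be tested. Total RNA of whole pancreas from 15 male C57BL/6J mice was hybridised to Agilent one-colour arrays, 1 mouse per array. The 4 groups were wild type after saline (WT, 4 mice), wild type after cerulein (4), mice labelled transgenic (TG) after saline (3) and TG after cerulein (4). All mice were fasted for 18 h and received 1 intraperitoneal injection of saline or of 50 µg/kg cerulein, a cholecystokinin analogue that causes pancreatitis in rodents. Death followed 3 h after the injection, although the time label of the saline mice is 0 h. The series title links the transgene to betacellulin, a ligand of the ERBB receptors, and to ERBB4. The promoter that drives the transgene is not given in the sources used here. Nothing in the labels says whether the mice of a group were littermates, and the p-values measure the spread between these mice.

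Pancreatic stellate cells lie around acini and small ducts, store vitamin A when quiescent, and share with fibroblasts the production of interstitial matrix. When activated by injury, platelet-derived growth factor (PDGF) or transforming growth factor beta, they take on a myofibroblast form, with stress fibres of smooth muscle actin, and deposit collagen together with proteins that bind and space it. The 10 genes cover these roles: secreted matrix proteins, the PDGF receptors through which growth signals arrive, and the cytoskeleton. In RNA from a whole organ, fewer cells of a type and less RNA per cell cannot be told apart.

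Promoters are shown for a member with a large genotype difference and for one with almost none. Postn encodes periostin, a secreted protein that links collagen to cells and is known as a target of transforming growth factor beta. Acta2 encodes smooth muscle actin, controlled by serum response factor through CArG boxes. The sequences are the 250 bases before a transcript start in RefSeq (GRCm38.p6), for Postn at chr3:54359017-54359266 on the plus strand and for Acta2 at chr19:34255374-34255623 on the minus strand. The Acta2 start used lies inside the annotated span of the gene, chr19:34240336-34255585, so most of that window overlaps the span. Capitals mark the SMAD element CAGAC in Postn and, in Acta2, CArG boxes with 1 G or C in the core.
Postn: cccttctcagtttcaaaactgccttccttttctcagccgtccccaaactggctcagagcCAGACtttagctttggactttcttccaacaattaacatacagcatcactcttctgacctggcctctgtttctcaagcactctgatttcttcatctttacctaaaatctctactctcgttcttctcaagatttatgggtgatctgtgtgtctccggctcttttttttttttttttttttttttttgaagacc
Acta2: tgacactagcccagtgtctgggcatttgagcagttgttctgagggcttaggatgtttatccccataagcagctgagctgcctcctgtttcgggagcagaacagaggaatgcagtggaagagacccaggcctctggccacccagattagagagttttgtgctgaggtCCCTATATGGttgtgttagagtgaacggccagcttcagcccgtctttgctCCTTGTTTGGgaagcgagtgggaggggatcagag
The table held 8 promoters of 6 members (Postn, Pdgfra, Frem1, Acta2, Des and Vim). On either strand, CAGAC occurred in 3 of these 8 and in 42.2% of 32851 promoters of the same length, so its presence is common. The 3 were the Postn promoter shown, that of Pdgfra and that of Acta2, where it is not marked. The other Postn promoter held 0, so the element does not set Postn apart from Acta2. CArG boxes with 1 G or C in the core occurred in 1 of the 8, that of Acta2, and in 7.24% of all. The strict CArG box was in 0 of the 8 and in 1.47% of all. A match is a description of the letters and shows no binding.

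Levels are given as log2 signal minus the 75th percentile of the same array, so a value of 0 is that percentile and probes of different genes are not set against each other. Differences are TG minus WT or cerulein minus saline on the log2 scale, with the standard error (SE) from limma. A gene is called when its adjusted p is below 0.05 by limma with Benjamini-Hochberg adjustment over all 42181 probes kept. Between genotypes, 1093 of these probes had an unadjusted p under 0.05 after saline and 2897 after cerulein. The arrays lay on 3 slides. Slide 2 held cerulein arrays alone, WT replicates 11 and 12 and TG replicate 16, so differences within each slide are given beside the pooled ones. These were also the brightest arrays, with 75th percentiles of 381 to 529 against 152 to 330.5 on the other slides, and 54.9% to 76.0% of probes were well above background per array. No probe was saturated. Acinar markers summed to between 5979.8 and 20979 times the array's 75th percentile. Betacellulin mRNA (Btc) differed by 0.55 ± 0.49 (SE) after saline and by 0.49 ± 0.45 after cerulein, with overlapping groups (limma adjusted p = 1.00 and 0.825). The position of that probe is not given, so it does not check the labels.

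Of the 5 members that encode secreted matrix proteins, Mgp was higher in TG than in WT after both treatments. Postn and Lum were higher after cerulein, all by more than the spread between mice. Frem1 was also called after cerulein, but every WT mouse was below background. Dcn was not called in either treatment. After saline, 1 of the 10 members was called higher, against 0.0461% of all genes tested, and after cerulein 4 of 10 were, against 0.0923%. None was called lower in either comparison, and neither was any other of the 17338 genes tested. In 7 of the 10 (Lum, Dcn, Postn, Mgp, Frem1, Pdgfra and Pdgfrb) every TG mouse lay above every WT mouse of the same treatment, both after saline and after cerulein. Over all genes, TG lay wholly above WT in 4.41% after saline and in 1.57% after cerulein. The median difference of the 10 members was 1.31 after saline and 1.36 after cerulein, beside 0.00 and 0.10 over all genes. These counts and medians include Frem1, which passed the filter on dim probes only through TG arrays. That favours a higher level in TG, so the call and the lack of overlap of Frem1 are no support.

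**Figure D1:**
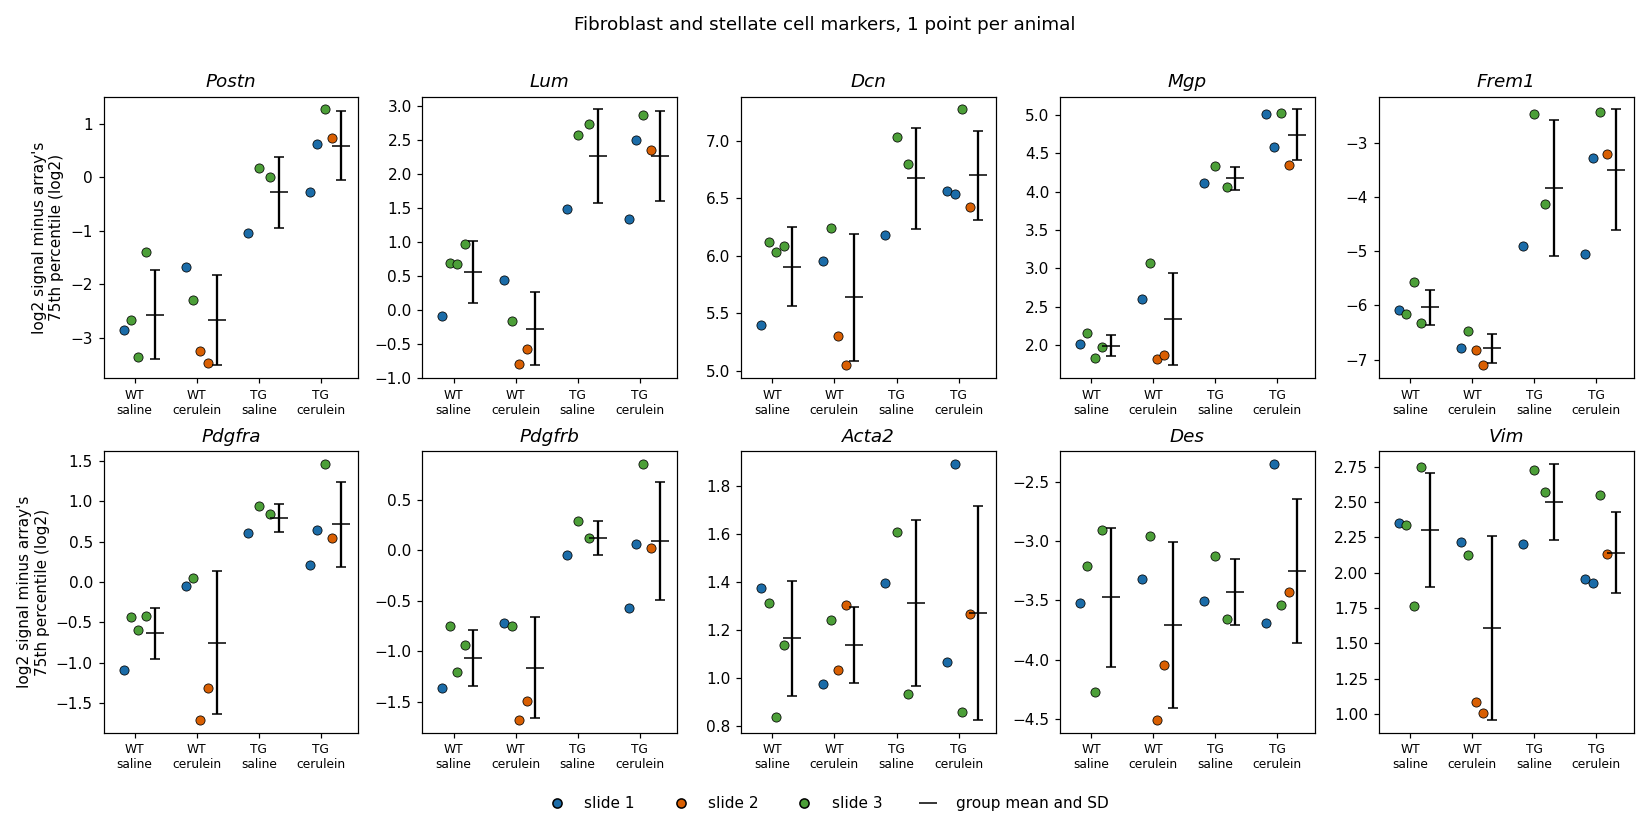
Level of each of the 10 markers in every mouse, as log2 signal minus the array's 75th percentile. Points are mice, coloured by slide, and the bar beside each group is the mean with its SD. In 7 panels the TG groups lie above the WT groups of the same treatment, while in the panels of Acta2, Des and Vim they overlap.

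Lum and Dcn encode lumican and decorin, small leucine-rich proteoglycans that bind collagen fibrils and set their spacing. They are neighbours on chromosome 10 (GRCm38.p6), Dcn at chr10:97479500-97518163 and Lum at chr10:97565501-97572703. Lum read -0.10, 0.69, 0.67 and 0.96 in WT saline replicates 5 to 8 and 0.43, -0.17, -0.80 and -0.57 in WT cerulein replicates 9 to 12. It read 1.48, 2.58 and 2.74 in TG saline replicates 2 to 4 and 1.34, 2.50, 2.87 and 2.35 in TG cerulein replicates 13 to 16. The lowest TG mouse thus lay above the highest WT mouse of either treatment. After cerulein Lum was 5.82-fold higher in TG, a log2 difference of 2.54 ± 0.39 (SE, limma adjusted p = 0.0276). After saline the difference was 1.71 ± 0.42 and was not called (limma adjusted p = 0.840).

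Dcn read 5.39, 6.12, 6.03 and 6.08 in WT saline, 5.95, 6.24, 5.31 and 5.05 in WT cerulein, 6.18, 7.03 and 6.80 in TG saline, and 6.56, 6.54, 7.27 and 6.42 in TG cerulein, in the same order of replicates. The groups did not overlap within either treatment, but the gaps were narrow, with the lowest TG saline mouse at 6.18 and the highest WT saline mouse at 6.12. The difference was 0.77 ± 0.33 after saline and 1.06 ± 0.31 after cerulein, not called in either (limma adjusted p = 1.00 and 0.471). With the slide as a block, the cerulein difference was 0.96 and called (limma adjusted p = 0.0176). In that fit 5 of the 10 members, Frem1 among them, were called higher after cerulein, against 61 of all 17338 genes (0.187% of all probes).

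Within slides the Lum difference after cerulein was 1.49 on slide 1 (1 WT, 2 TG mice), 3.03 on slide 2 (2 WT, 1 TG) and 3.04 on slide 3 (1 of each). After saline it was 1.58 on slide 1 and 1.88 on slide 3. For Dcn the values were 0.60, 1.25 and 1.03 after cerulein and 0.79 and 0.84 after saline. Both proteoglycans were thus higher in TG on every slide that held the comparison. Of 11 other names of this proteoglycan family, 10 were on the array and 7 could be tested. None of the 7 was called by limma (2 and 3 at an unadjusted p under 0.05 after saline and cerulein), and their median differences were 0.80 after saline and 0.58 after cerulein. Aspn, encoding asporin, showed 1.98 ± 0.49 after cerulein without overlap (limma adjusted p = 0.358), and Bgn, encoding biglycan, showed -1.01 ± 0.58 with overlap (0.767).

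Postn read -2.87, -2.66, -3.36 and -1.39 in WT saline and -1.67, -2.30, -3.26 and -3.47 in WT cerulein. In TG it read -1.05, 0.17 and 0.01 after saline and -0.29, 0.62, 1.26 and 0.74 after cerulein. No WT mouse reached the level of any TG mouse, and the spread was wide in every group, with SDs of 0.84 and 0.84 in WT and 0.66 and 0.64 in TG. After cerulein the difference was 3.26 ± 0.49 (SE), or 9.58-fold (limma adjusted p = 0.0254), rank 9 of 42181 probes from the highest. After saline it was 2.28 ± 0.53 and not called (limma adjusted p = 0.619). Within slides it was 1.84, 4.10 and 3.56 on slides 1, 2 and 3 after cerulein, and 1.82 and 2.56 on slides 1 and 3 after saline. Another background correction (normexp) lowered it to 2.27 after cerulein, still called (limma adjusted p = 0.00313), and to 1.06 after saline.

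Mgp encodes matrix Gla protein, a secreted inhibitor of calcification that also binds bone morphogenetic proteins. It read 2.01, 2.15, 1.82 and 1.97 in WT saline and 4.11, 4.34 and 4.06 in TG saline. After cerulein it read 2.59, 3.07, 1.81 and 1.87 in WT and 5.02, 4.58, 5.02 and 4.35 in TG. The saline groups were tight, with SDs of 0.13 and 0.15, and the highest WT mouse, 2.15, lay below the lowest TG mouse, 4.06. Mgp was 4.54-fold higher in TG after saline (2.18 ± 0.29, limma adjusted p = 0.0180) and 5.30-fold higher after cerulein (2.41 ± 0.27, limma adjusted p = 0.00199). Within slides the difference was 2.10 and 2.22 on slides 1 and 3 after saline, and 2.20, 2.51 and 1.95 on slides 1, 2 and 3 after cerulein.

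Frem1 encodes a basement membrane protein that, with FRAS1 and FREM2, anchors epithelium to mesenchyme in the embryo. Its probe was not well above background in any of the 8 WT mice, where it read -6.33 to -5.57 after saline and -7.10 to -6.46 after cerulein. In TG it read -4.91, -2.45 and -4.12 after saline and -5.05, -3.28, -2.43 and -3.19 after cerulein, and was above background in 1 of 3 and 3 of 4 mice. The fitted difference after cerulein was 3.30 ± 0.53 (limma adjusted p = 0.0405), and after saline 2.21 ± 0.57 (0.847). Because WT gave only a limit, a floor was also used for the WT arrays. It was the lowest signal that counted as well above background on each array. Against this floor the TG mean after cerulein was 2.44-fold higher. That value is no firm lower bound, because TG replicate 13 was itself not above background and normexp gave a smaller difference. After saline only TG replicate 3 was above background, so no such value is given. The fitted saline difference was 1.52 without that mouse and 0.25 with normexp background correction. Within slides the fitted values were 2.61, 3.77 and 4.04 on slides 1, 2 and 3 after cerulein and 1.17 and 2.73 on slides 1 and 3 after saline. The call after cerulein held in 6 of 25 alternatives. It was lost, among others, with normexp (0.62, limma adjusted p = 0.487), in the authors' deposited series table (1.77, 0.121), with quantile normalization (3.05, 0.0695) and with no filter on dim probes (3.30, 0.0515). Of its partners, Fras1 and Frem3 were too dim to test, and Frem2 differed by -0.38 and -0.56 (limma adjusted p = 1.00 and 0.736).

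Pdgfra and Pdgfrb encode the receptors for PDGF, the alpha form marking fibroblasts and the beta form marking stellate cells and pericytes. Pdgfra read -1.09, -0.44, -0.59 and -0.42 in WT saline, -0.05, 0.05, -1.71 and -1.31 in WT cerulein, 0.61, 0.94 and 0.84 in TG saline, and 0.21, 0.64, 1.46 and 0.55 in TG cerulein. Pdgfrb read -1.37, -0.75, -1.21 and -0.93 in WT saline, -0.72, -0.75, -1.68 and -1.49 in WT cerulein, -0.05, 0.29 and 0.12 in TG saline, and -0.57, 0.06, 0.85 and 0.02 in TG cerulein. Neither receptor overlapped between genotypes within a treatment, although the nearest mice after cerulein lay close together, at 0.05 and 0.21 for Pdgfra and at -0.72 and -0.57 for Pdgfrb.

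The receptor differences were not called in either treatment. For Pdgfra they were 1.43 ± 0.41 after saline and 1.47 ± 0.38 after cerulein (limma adjusted p = 1.00 and 0.389), and for Pdgfrb 1.19 ± 0.33 and 1.25 ± 0.30 (1.00 and 0.335). The 95% intervals after cerulein ran from 0.65 to 2.29 for Pdgfra and from 0.60 to 1.90 for Pdgfrb. Within slides 1, 2 and 3 after cerulein, Pdgfra differed by 0.47, 2.06 and 1.41 and Pdgfrb by 0.46, 1.61 and 1.60, so the smallest values came from slide 1. After saline, slides 1 and 3 gave 1.70 and 1.38 for Pdgfra and 1.32 and 1.17 for Pdgfrb. Of the 4 genes for PDGF ligands none was called between genotypes (0 and 1 at an unadjusted p under 0.05), with medians of 0.04 and 0.11. Pdgfa, a ligand of the alpha receptor, rose with cerulein in both genotypes, by 1.42 ± 0.26 in WT and 1.12 ± 0.28 in TG (limma adjusted p = 0.00326 and 0.0298).

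The 3 cytoskeletal markers were not called in any comparison. Acta2 encodes the smooth muscle actin of myofibroblasts and vessel walls, Des the intermediate filament desmin of muscle and stellate cells, and Vim the mesenchymal filament vimentin. Acta2 ranged from 0.84 to 1.37 in WT saline, 0.97 to 1.30 in WT cerulein, 0.93 to 1.61 in TG saline and 0.86 to 1.89 in TG cerulein. Des ranged from -4.27 to -2.90, -4.51 to -2.95, -3.65 to -3.12 and -3.69 to -2.35 in the same groups. Vim ranged from 1.77 to 2.75, 1.01 to 2.21, 2.20 to 2.73 and 1.93 to 2.55. The genotypes overlapped in all 3 genes after both treatments.

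After saline Acta2 differed by 0.15 ± 0.26, Des by 0.05 ± 0.42 and Vim by 0.20 ± 0.34, and after cerulein by 0.13 ± 0.24, 0.46 ± 0.39 and 0.53 ± 0.31 (limma adjusted p of 0.769 or more). The 95% intervals after cerulein ran from -0.39 to 0.65 for Acta2, from -0.38 to 1.30 for Des and from -0.13 to 1.20 for Vim. The upper bound for Acta2 lies below the lower bound for Lum (1.71), Postn (2.20) and Mgp (1.82), a comparison of intervals and not a test between genes. Direction varied between slides after cerulein: 0.51, 0.10 and -0.39 on slides 1, 2 and 3 for Acta2, 0.30, 0.85 and -0.58 for Des, and -0.27, 1.09 and 0.42 for Vim. Of 14 other smooth muscle and pericyte genes tested, 0 were called by limma (0 and 1 at an unadjusted p under 0.05), with median differences of 0.16 and 0.13. They include Myocd, which was above background in WT mice alone. Of 5 other filament genes (Gfap, Prph, Nes, Synm and Plec) 0 were called or reached an unadjusted p under 0.05, with medians of -0.08 and -0.05. Among 7 stellate storage and neural genes 0 were called, with medians of -0.09 and -0.05 and 1 at an unadjusted p under 0.05 after each treatment.

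**Figure D2:**
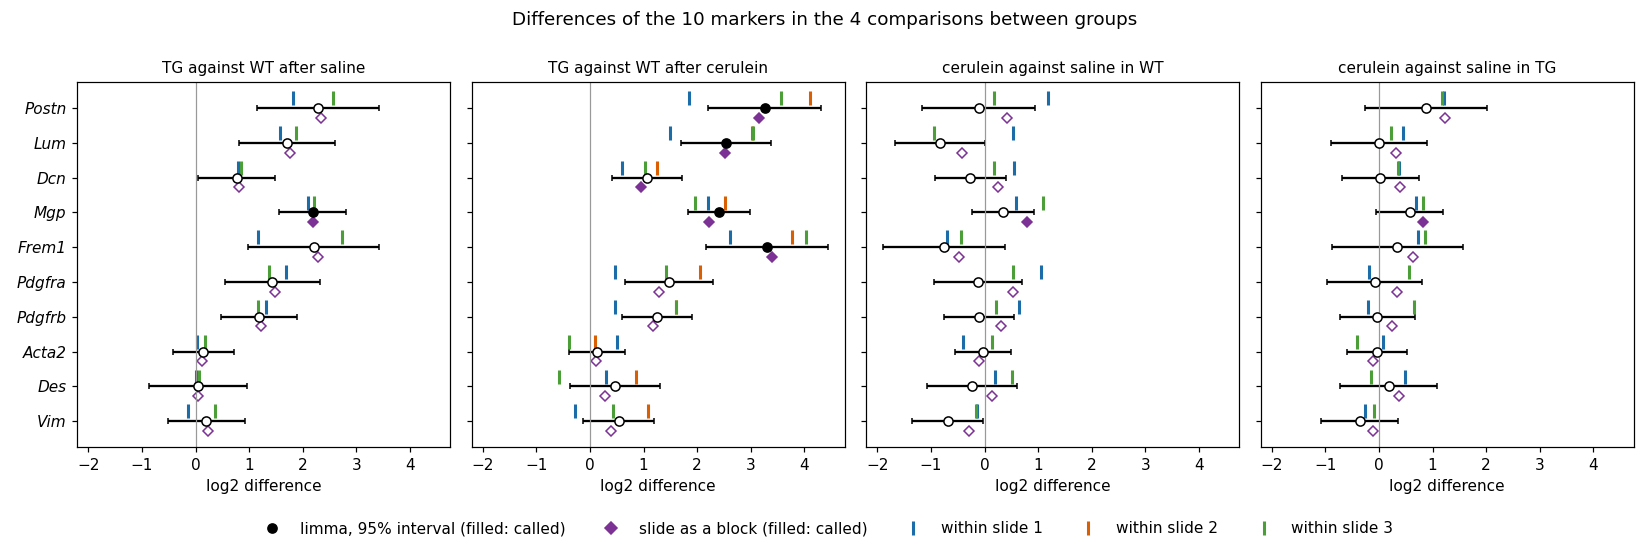
Log2 differences of the 10 markers in the 4 comparisons between groups. Circles are limma estimates with 95% intervals, diamonds the estimates with the slide as a block, both filled where called, and vertical ticks the differences within single slides. Filled circles are seen for Mgp in both genotype panels and for Postn, Lum and Frem1 after cerulein, and in neither cerulein panel.

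No member was called between cerulein and saline at 3 h. Against saline, 0 of 10 were called in WT, where 4.86% of all genes were called higher and 6.36% lower, and 0 of 10 in TG, where the shares were 4.29% and 2.72%. At an unadjusted p under 0.05 there were 1 and 0, beside 11004 and 7945 of all 42181 probes. The members' median was -0.18 in WT and 0.01 in TG, beside -0.06 over all genes in each. In WT, Lum differed by -0.83 ± 0.39 and Vim by -0.69 ± 0.31 (limma adjusted p = 0.192 and 0.178). In TG, Postn differed by 0.87 ± 0.53 and Mgp by 0.57 ± 0.29 (limma adjusted p = 0.424 and 0.326). With the slide as a block, Mgp was called higher after cerulein, by 0.79 in WT and 0.82 in TG (limma adjusted p = 0.00982 and 0.00683). In these fits 2138 and 2425 of all 17338 genes were called higher (9.07% and 9.9% of all probes). Among the members, only Mgp in TG had all cerulein mice above all saline mice, at 4.35 or more against 4.34 or less. That separation occurred in 9.94% of all genes in TG.

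In WT, slide 2 carried the lowest cerulein values. WT replicates 11 and 12 were the lowest of their group in 5 and 4 of the 10 members, and differences within slides 1 and 3 were positive in 7 of 10 members on each, against 1 of 10 in the pooled comparison. On slide 1, for example, Postn differed by 1.19 and Pdgfra by 1.05, while the pooled values were -0.11 and -0.12. Each of these within-slide differences rests on 1 cerulein mouse, with 1 saline mouse on slide 1 and 3 on slide 3. The difference between the cerulein responses of TG and WT was called for 0 members and for 0 of all 17338 genes by limma, with 396 probes at an unadjusted p under 0.05 and 1 probe called with the slide as a block. For Postn that difference was 0.98, with a 95% interval from -0.58 to 2.53, and for Lum 0.83, from -0.39 to 2.06. A larger genotype difference after cerulein than after saline was therefore not shown for any member.

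The genotype difference was also averaged over both treatments, a comparison added after the data were seen. In it 5 of 10 members were called higher, against 0.311% of all genes. Postn differed by 2.77 ± 0.36, Mgp by 2.30 ± 0.20 and Lum by 2.12 ± 0.29 (limma adjusted p = 0.00471, 0.000117 and 0.00523). Pdgfrb differed by 1.22 ± 0.22 (limma adjusted p = 0.0479), a call that held in only 8 of 25 alternatives and reached 0.175 when single arrays were left out. The other called member was Frem1, which was below background in all WT mice and kept through TG arrays, so its call is no support. That call (limma adjusted p = 0.00694) was lost with normexp, at 0.44 (0.455), and without slide 2. Pdgfra at 1.45 ± 0.28 and Dcn at 0.91 ± 0.23 missed the threshold (0.0636 and 0.182) and passed it with the slide as a block (0.00549 and 0.00254), where 1.78% of all genes were called higher. Acta2 at 0.14 ± 0.18, Des at 0.25 ± 0.29 and Vim at 0.37 ± 0.23 were not called (0.882, 0.868 and 0.722).

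In each TG group the same mouse was the lowest in most members, and another the highest. TG saline replicate 2 was the lowest of its group in 7 of the 10 members and replicate 3 the highest in 9. TG cerulein replicate 13 was the lowest in 6 and replicate 15 the highest in 8. Both low mice lay on slide 1 and both high ones on slide 3. TG cerulein replicate 14, also on slide 1, was the lowest in 1 member and the highest in 2. In WT no mouse was the lowest or the highest of its group in more than 5 members. Such extremes were not counted over all genes. Genes whose profile over the 15 arrays was most like that of a member were found by the root mean square difference after centring each probe on its median. For Dcn these were Rab34 and Pcolce2 (0.18 log2 each) and Cpd (0.20) among 15447 genes searched. For Postn they were Col1a1 (0.70), Fzd1 (0.77) and Col8a1 (0.78) among 3349. For Acta2 they were Ecpas (0.22), Aadacl4fm5 (0.23) and Xrn1 (0.23) among 17283, with Acta2's own SD at 0.29. These likenesses are descriptions and share arrays, slides and scaling.

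The wider fibroblast and stellate programme was tested with 33 further genes, of which 32 could be measured. None was called by limma between genotypes in either treatment. With the slide as a block 1 and 5 were called higher, beside 15 and 61 of all 17338 genes. At an unadjusted p under 0.05 there were 11 and 13, all higher in TG, beside 1093 and 2897 of all 42181 probes. Their median difference was 0.45 after saline, with 25 of 32 positive, and 0.60 after cerulein, with 28 of 32 positive. These counts and medians include Twist1, which was above background on 3 TG cerulein arrays and on no other array. It passed the filter only through TG, so its difference is no support. Averaged over both treatments 3 were called higher: Fn1, encoding fibronectin, at 1.34 ± 0.24, Mfap5, a microfibril protein, at 1.12 ± 0.20, and Ccn2, a matricellular growth factor, at 1.03 ± 0.14 (limma adjusted p = 0.0409, 0.0401 and 0.00612). Over all genes 0.311% were called higher in that average. With the slide as a block, 8 of the 32 were called higher in it, against 1.78% of all genes. Of 14 genes of transforming growth factor beta signalling tested, 0 were called in either treatment, with medians of 0.51 and 0.42. An unadjusted p under 0.05 was reached by 4 in each, of which 4 after saline and 3 after cerulein were higher in TG. Ccn2, which stands on both lists, differed by 1.15 ± 0.19 after cerulein (limma adjusted p = 0.0536, and 0.00384 with the slide as a block).

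Several of these genes responded to cerulein in both genotypes. Thbs1, encoding thrombospondin 1, an activator of latent transforming growth factor beta, rose by 3.52 ± 0.44 in WT and 3.03 ± 0.47 in TG (limma adjusted p = 0.000196 and 0.00157). Skil, a feedback inhibitor of SMAD signalling, rose by 1.75 ± 0.31 and 1.57 ± 0.33 (0.00250 and 0.0119). Spon1, a secreted matrix protein, rose by 1.02 ± 0.18 and 0.95 ± 0.20 (0.00291 and 0.0109), and Ccn2 by 0.85 ± 0.19 and 1.10 ± 0.21 (0.0134 and 0.00613). Igfbp5 fell by 1.52 in WT (SE 0.41, limma adjusted p = 0.0313), a call lost with the slide as a block (0.0825).

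Other cell types were read through their own markers. Endothelial markers (10) had median genotype differences of -0.11 after saline and 0.21 after cerulein, and acinar markers (9) of -0.23 and -0.16. Macrophage markers (6) had medians of 0.49 and 0.35, with 4 of 6 positive in each. Islet markers (6) had medians of 0.53 and 0.69, with 6 of 6 positive in each. None of these genes was called by limma, while 3 islet and 1 macrophage genes reached an unadjusted p under 0.05 after cerulein. With the slide as a block, 1 islet gene was called higher after cerulein, and 3 islet and 1 macrophage genes in the genotype average. Over all genes, 61 of 17338 and 1.78% were called higher in these fits. Markers of lymphocytes, ducts, adipocytes, mesothelium and Schwann cells had medians from -0.38 to 0.72 after saline and from -0.20 to 0.38 after cerulein, with 0 genes called or at an unadjusted p under 0.05. The summed level of the macrophage list, in multiples of the array's 75th percentile, was 39.3 to 50.0 in WT saline, 42.5 to 46.4 in TG saline, 32.5 to 39.9 in WT cerulein and 30.1 to 40.7 in TG cerulein. For the islet list it was 626 to 1191, 1163 to 1423, 429 to 913 and 462 to 1351 in the same order, while for the 10 members it was 55.8 to 84.5, 103 to 171, 42.8 to 93.8 and 122 to 209. Of the islet defining markers, Ins1 and Gcg were above background on all arrays. What part these cells had in the members' differences was not tested.

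**Figure D3:**
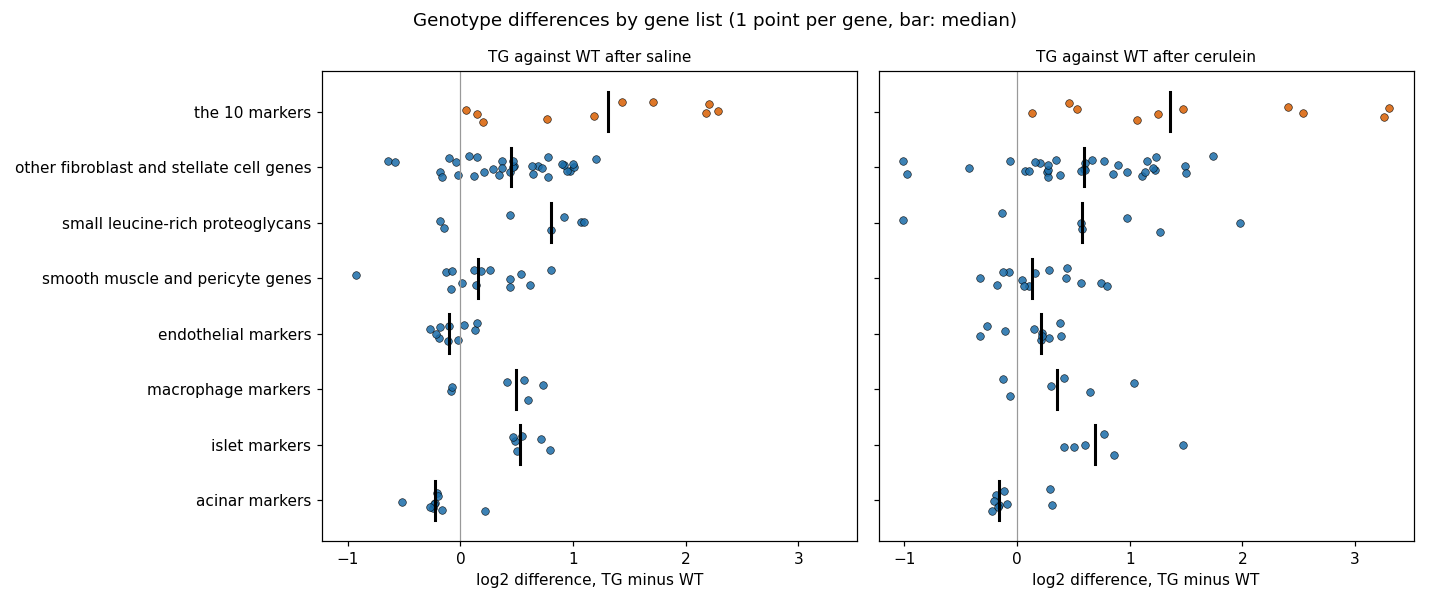
Genotype differences (log2, TG minus WT) after saline and after cerulein, 1 point per gene and a bar at each list's median. The 10 markers have medians of 1.31 and 1.36, the other fibroblast and stellate genes 0.45 and 0.60, and the smooth muscle and pericyte genes 0.16 and 0.13.

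The calls after cerulein depended on the spread shared among all 4 groups. With only the WT and TG cerulein arrays in the fit, none of the members was called (limma adjusted p = 0.160 for Mgp and Postn, 0.190 for Frem1 and 0.237 for Lum), although the differences themselves were the same. Without the 3 arrays of slide 2, Mgp stayed called at 2.04 (limma adjusted p = 0.0293), while Postn at 2.52, Lum at 2.11 and Frem1 at 3.03 were not (0.546, 0.546 and 0.550). Leaving out any 1 of WT cerulein replicates 10, 11 and 12, TG cerulein replicates 14, 15 and 16 or WT saline replicate 6 left Mgp as the 1 member called after cerulein. The saline call of Mgp was lost without any 1 of the 7 saline arrays, at an adjusted p up to 0.220 and a difference of 2.10 to 2.24.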

How the data were processed

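Spot signals of 15 one-colour arrays are fluorescence intensity values deposited by the authors. Per the file headers they come from Agilent Feature Extraction, version 10.7.3.1, which subtracts background within each array. The deposited flag columns (other: 0 or 1 per spot) mark outlier, saturated and background spots. The authors' deposited series table holds log2 values of 42482 probes, 42379 of them shared, which correlated with the signals at 0.987 to 0.998 per array, with column medians of 6.56 to 6.93. Its scale is log2 and its normalization between arrays is unknown. It served as an alternative.

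Here, 105 to 188 outlier spots per array were left out, and 59305 spots were averaged to 55681 probes. Each array's 75th percentile was subtracted from its log2 signals. Probes well above background on 3 or more arrays were kept (42181), 27235 of all probes having a symbol through RefSeq accessions. A gene was read from its brightest kept probe. limma 3.58.1 in R 4.3.3 (tables read by the data.table package, 1.17.8) was fitted to the 4 group means without covariates, two-sided, with 11 residual and 3.26 prior degrees of freedom, for 5 comparisons. The number of arrays limits the precision.

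Alternatives were normexp correction (offset 50), quantile normalization, other filters, the slide as a block, array weights and leaving out arrays. The files held no mean signal column, so normexp used the median signal. On simulated data for TG against WT after saline (42181 probes), 133 of 200 probes changed by 2 on the log2 scale were called, 0 of 200 changed by 1, and 7 unchanged probes were called in the first case. The members and lists were chosen with earlier results of these data known. Named genes are all members, Btc, in each list the 2 called genes with the largest change, and the 3 genes of most similar profile to Dcn, Postn and Acta2. Any further gene was named with its values in view. Results for 2 genes that the rule or the lists name are not reported here.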

Additional observations from a re-analysis of the deposited data

Results flagged for a closer look

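Dcn stood out in 2 groups of 4 mice by the gap between an extreme mouse and its nearest neighbour, relative to the range of the group (Dixon's ratio). In WT saline, replicate 5 read 5.39 against 6.03 to 6.12 in the other mice, and it was the one WT saline array on slide 1. In TG cerulein, replicate 15 read 7.27 against 6.42 to 6.56, and it was the one TG cerulein array on slide 3. By chance about 1 in 20 groups is picked out this way. Without WT saline replicate 5 the Dcn difference between TG and WT after saline was 0.60, and without TG cerulein replicate 15 the difference after cerulein was 0.87, neither called (limma adjusted p = 1.00 in both).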

How the results depend on the processing

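How many members were called depended on the processing. After saline the 1 member called became 6 with array weights, and 0 to 1 when single arrays were left out, with 0 without any 1 of the 7 saline arrays (Mgp, limma adjusted p up to 0.220). Over all probes, array weights called 203 higher and 87 lower in TG after saline, and 162 higher and 569 lower after cerulein. After cerulein the 4 members called became 2 with only probes above background on all arrays, a filter that left Postn and Frem1 untested. Mgp and Lum stayed called there (limma adjusted p = 0.000388 and 0.00807). The 4 became 7 with array weights, 1 without slide 2, 1 with the slide as a block and without slide 2, 0 with only the groups compared, and 1 to 4 when single arrays were left out. Mgp was called in each of those leave-one-out fits (adjusted p at most 0.0124), while Postn, Lum and Frem1 reached 0.131, 0.135 and 0.175. Between cerulein and saline, the 0 members called in WT became 1 with the slide as a block, 2 with array weights (Lum and Vim, lower) and 2 with the slide as a block and without slide 2. Over all probes in WT, array weights called 8381 higher and 10216 lower. The slide block called 3826 higher, and 3810 higher without slide 2. In TG the 0 became 1 with the slide as a block, with and without slide 2, where 4178 and 3850 probes were called higher. Pdgfra in WT turned from -0.12 to 0.77 with the slide as a block and without slide 2 (limma adjusted p = 0.0443). The genotype average gave 4 to 7 members called, and 1 without slide 2. Over all probes the average called 24 higher without slide 2. It called 436 higher and 423 lower with the slide as a block, and 641 higher and 1181 lower with array weights. For these changes the cause was not tested. Both added fits, the genotype average and the slide block without slide 2, were chosen after seeing the data. A fit of only the groups compared could not be made for the difference of responses or the average. No paired analysis was possible because the groups share no replicate number. Signal over background limits Frem1, and in part Postn and Des, each dim on 1 array.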
